A study of Homo sapiens with 12 samples.

Results

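The mRNAs of the nuclear-encoded subunits of the mitochondrial respiratory chain were followed in human acute myeloid leukemia (AML) cells treated with duocarmycin SA (DSA), an agent that alkylates adenines in the minor groove of DNA. Members were taken by gene name alone. They were the protein-coding genes whose symbols begin with the prefixes of complex I (NDUFA, NDUFB, NDUFC, NDUFS and NDUFV, without the NDUFAF assembly factors), complex III (UQCR), complex IV (COX4 to COX8) and ATP synthase (ATP5F1, ATP5M and ATP5P), together with SDHA, SDHB, SDHC, SDHD and CYC1. This gave 90 of the 60754 genes in the files. Of these, 37 belong to complex I, 4 to complex II, 10 to complex III, 19 to complex IV (with NDUFA4, NDUFA4L2 and the supercomplex factor COX7A2L) and 18 to ATP synthase (complex V), and 2 are read-through genes. Enough reads for a test were found for 83, and the other 7 are described below.

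The respiratory chain carries electrons from NADH (complex I) and succinate (complex II) through coenzyme Q, complex III and cytochrome c to oxygen at complex IV, and the proton gradient built on the way drives ATP synthase. Most subunits are encoded in the nucleus, translated in the cytosol and imported, while a small set of hydrophobic core subunits is encoded by mitochondrial DNA, so the complexes are assembled from the products of 2 genomes. Leukemic blasts of the myeloid lineage are known for their use of oxidative phosphorylation.

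HL-60 cells, kept in IMDM with a larger share of heat-inactivated serum, received 112.7 or 500 pM DSA for 36 h, and Molm-14 cells, kept in RPMI with a smaller share, received 11.1 or 100 pM DSA for 36 h. The low dose of each line matches the half-maximal inhibitory concentration that the paper gives for it. Doses near equal in pM between the lines are thus not equal in effect on viability. Each line had its own control, labelled as having no treatment while the study's methods name a vehicle. Both are established AML cell lines, each 1 line from 1 source, and each of the 6 groups had 2 libraries of total RNA. No source used here says that these came from separate cultures, and the p-values then cover the spread between these libraries and nothing wider. Line, medium, serum and dose differ together between the lines and cannot be told apart.

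The libraries held 21177424 to 63927449 expected counts, with the smallest totals in DSA-treated HL-60 cells. The MLL fusion targets HOXA9, HOXA10 and MEIS1 marked the Molm-14 libraries, with HOXA9 at 0.02 to 0.21 TPM (a unit that corrects for transcript length and library total, so that genes can be compared) in HL-60 cells and 96.4 to 114 TPM in Molm-14 cells. Of the 5 promyelocyte granule genes, MPO and PRTN3 were higher in untreated HL-60 cells and ELANE, AZU1 and CTSG in untreated Molm-14 cells. Genes of other cell types (CD79A, CD3E, HBB, COL1A1, EPCAM and CDH5) were at or below 6.84 TPM in all 12 libraries, and HBB was at 0 throughout. Within that range CD79A had 6.72 and 6.84 TPM in HL-60 cells at 500 pM DSA, against 3.01 and 2.80 TPM in controls. CD3E had 2.19 and 2.45 TPM there, against 0.30 and 0.26 TPM. All 5 granule genes stood lower in both HL-60 libraries at 500 pM DSA than in either HL-60 control, with MPO at 2490 and 2528 TPM against 6461 and 6343 TPM in controls. The myeloid gene PTPRC stood higher at 500 pM, at 69.2 and 66.6 TPM against 32.9 and 28.5 TPM in controls, while CD33 and SPI1 moved little. The part of these shifts in the HL-60 results below was not tested. In bulk libraries, a change in the mix of cell states and a change in RNA per cell cannot be told apart.

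Members were abundant mRNAs. Together they made up 2.77% and 2.89% of all TPM in HL-60 cells at 500 pM DSA, against 2.85% and 2.92% in HL-60 controls. In Molm-14 cells at 100 pM the share was 2.12% and 2.14%, against 2.35% and 2.33% in controls, and the 2 groups did not overlap. Across the untreated lines the median member stood at 283 TPM in HL-60 cells and 209 TPM in Molm-14 cells (read-through genes left out). ATP5F1B, the beta subunit that carries the catalytic sites of ATP synthase, was the highest in both, at a mean of 1341 TPM in HL-60 and 1307 TPM in Molm-14 controls.

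The low dose of DSA changed no member past the test in Molm-14 cells. At 11.1 pM, 0 of 83 members were called higher and 0 lower (adjusted p under 0.05 in edgeR's quasi-likelihood test over all 13422 genes tested, where 0.969% were called higher and 0.238% lower). At an unadjusted p under 0.05, 1 member was higher and 8 were lower, and DESeq2 and limma-voom also called 0. The median member changed by -0.02 on the log2 scale.

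DSA at 100 pM lowered many members slightly in Molm-14 cells. Of 83 members, 42 fell and 4 rose, or 50.6% and 4.82%, where 21.9% of all genes tested were called lower and 22.9% higher. The median change was -0.10 on the log2 scale, against 0.00 over all genes, and all falls but one were under 0.5 in size. By complex, 17 of 37 members were lower in complex I, 5 of 10 in complex III, 8 of 13 in complex IV and 11 of 17 in complex V, while in complex II the count was 1 of 4, near the share of all genes. The count rested partly on one library. Without replicate 1 of the Molm-14 controls 27 members were called lower instead of 42, and in complex V 3 instead of 11. For complex V the count was also 5 without replicate 1 and 4 without replicate 2 of the 100 pM libraries, and in complex III it was 3 instead of 5 with any one of these 3 libraries left out.

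**Figure D1:**
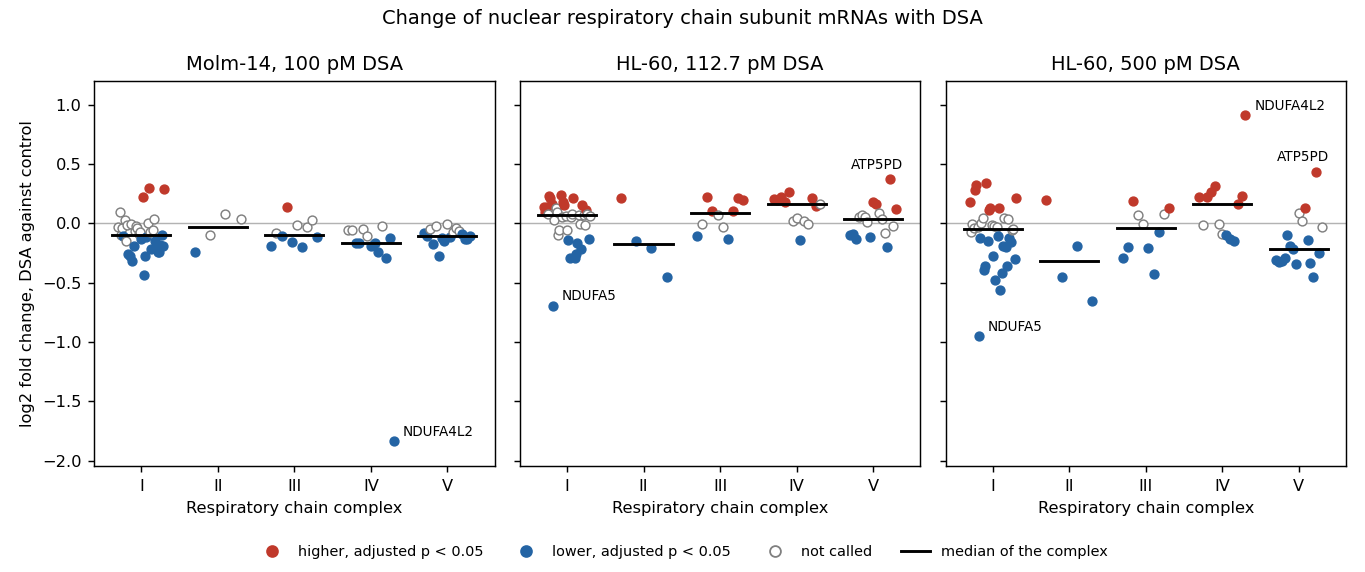
Log2 fold change of each tested member (1 circle each, read-through genes left out) against its line's control, by complex, for Molm-14 cells at 100 pM DSA and HL-60 cells at 112.7 and 500 pM DSA. Filled circles passed an adjusted p of 0.05 and black lines are medians of the complex. The median of complex IV is -0.17 in Molm-14 cells and 0.17 in HL-60 cells at 500 pM, where its members lie on both sides of 0. The median of complex V is -0.21 in HL-60 cells at 500 pM.

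The exception in size was NDUFA4L2, a close relative of the complex IV subunit NDUFA4 that is known as a hypoxia-inducible gene. It stood at 2.82 and 3.31 CPM (counts scaled to a common library size by TMM, so that libraries can be compared for 1 gene) in Molm-14 cells at 100 pM DSA, against 10.9 and 11.0 CPM in controls. At 11.1 pM it had 10.7 and 10.9 CPM, so only the high dose departed from the control level. The mRNA fell by 1.84 on the log2 scale at 100 pM (SE 0.14, adjusted p = 4.79e-09 in edgeR), to a level 3.57-fold lower than in controls. It was the 1 member past a 2-fold change in Molm-14 cells at 100 pM, where 0.73% of all genes tested fell and 3.29% rose past 2-fold.

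In HL-60 cells NDUFA4L2 was close to absent. It had 13 and 36 counts at 500 pM (0.609 and 1.11 CPM), against 17 and 29 counts (0.456 and 0.492 CPM) in HL-60 controls. The change was 0.91 on the log2 scale (SE 0.29, adjusted p = 0.00855 in edgeR), but it rested on 1 library. Without replicate 2 of the 500 pM group it was 0.35 and no longer called, and it was also not called when all libraries were thinned to the smallest. The difference between the lines in the change, HL-60 at 500 pM minus Molm-14 at 100 pM, was 2.75 (SE 0.33, adjusted p = 1.03e-06 in edgeR). Its common partner NDUFA4, a subunit of complex IV once counted in complex I, kept a high level in both lines. NDUFA4 had 173 and 175 CPM at 500 pM against 150 and 146 CPM in HL-60 controls, and 92.7 and 93.6 CPM at 100 pM against 100 and 102 CPM in Molm-14 controls.

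**Figure D2:**
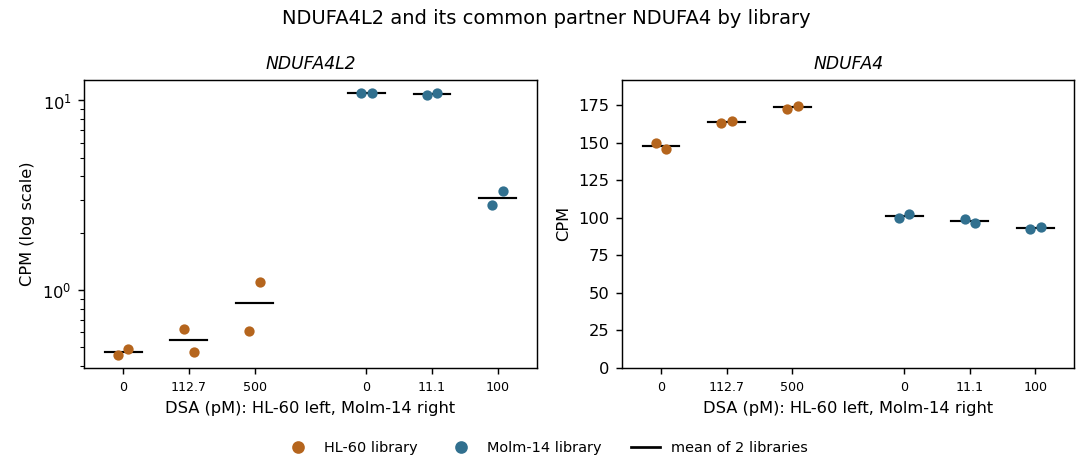
NDUFA4L2 (left, log axis) and NDUFA4 (right, axis from 0) in CPM for each of 12 libraries, by DSA dose in pM, with HL-60 libraries on the left of each panel, Molm-14 libraries on the right and bars at the mean of 2 libraries. NDUFA4L2 in Molm-14 cells lies between 10.7 and 11.0 CPM in controls and at 11.1 pM and at 2.82 and 3.31 CPM at 100 pM, while NDUFA4 moves little.

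Within complex I, the largest falls in Molm-14 cells were in NDUFB6, a membrane-arm accessory subunit, and NDUFA9, an accessory subunit near the quinone site. NDUFB6 had 20.5 and 22.05 CPM at 100 pM DSA, against 29.1 and 28.4 CPM in controls, a change of -0.44 (SE 0.06, adjusted p = 5.66e-06 in edgeR). NDUFA9 had 66.7 and 68.1 CPM, against 86.9 and 81.1 CPM in controls, a change of -0.32 (SE 0.05). For both genes the DSA-treated libraries lay wholly below the controls. Here and in other genes named for a call, such separation follows largely from that choice and adds no support. Of the catalytic core of the matrix arm, NDUFS1, NDUFS7, NDUFS8, NDUFV1 and NDUFV2 fell, by 0.10 to 0.25. NDUFS3, another core subunit, had a change of 0.04 and was not called.

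The 4 members that rose in Molm-14 cells were 3 accessory subunits of complex I and 1 of complex III. NDUFC1, a small membrane-arm subunit, had 45.3 and 45.8 CPM at 100 pM, against 36.6 and 37.3 CPM in controls (change 0.30, SE 0.05, adjusted p = 9.71e-05 in edgeR). NDUFV3, an accessory subunit of the NADH-oxidizing module, changed by 0.29, NDUFB5 of the membrane arm by 0.22 and UQCRB, the ubiquinone-binding protein of complex III, by 0.14. The call of UQCRB was lost without replicate 2 of the controls (0.10) or replicate 1 of the 100 pM group (0.10). In complex IV the fall in COX8A, its smallest nuclear subunit, followed NDUFA4L2 in size, with 162 and 158 CPM at 100 pM against 196 and 196 CPM in controls (change -0.30, SE 0.04).

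In HL-60 cells members changed at both doses, and in both directions. At 112.7 pM DSA 29 of 83 rose and 19 fell, where 24.2% of all genes tested were called higher and 27.4% lower. At 500 pM 20 rose and 40 fell, where 35.8% of all genes were called higher and 37.8% lower. The median member changed by 0.06 at 112.7 pM and by -0.07 at 500 pM, with all genes at 0.00. At 500 pM, then, 24.1% of members rose and 48.2% fell in a line where most genes tested were called.

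The split between rises and falls depended on the scaling. With library totals alone, which moved the median of all genes by 0.18 at 500 pM, 44 members were higher and 19 lower. With upper quartile factors, which moved it by 0.12, 35 were higher and 23 lower. At 112.7 pM these scalings gave 46 higher and 8 lower, and 47 higher and 8 lower, and RLE factors gave 40 higher and 10 lower. Relative to the median of all genes the members differed by -0.07 at 500 pM and 0.07 at 112.7 pM under each of these 3 scalings. A change of scaling shifts all genes nearly alike, so this difference could hardly move and is no check of the split. At 112.7 pM 11 members were lower without replicate 1 and 17 higher without replicate 2 of that group.

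Dose was compared directly within HL-60 cells. Between 500 and 112.7 pM 46 members were lower and 3 higher, where 26.8% of all genes tested were called lower and 25.9% higher, and the median member differed by -0.14. This split too moved with the scaling: library totals alone gave 16 higher and 17 lower, with the median of all genes shifted by 0.11. Without replicate 2 of the 112.7 pM group 27 members were lower. In Molm-14 cells 28 members were lower and 4 higher at 100 pM than at 11.1 pM, where 18.5% of all genes were called lower and 19.6% higher. That count was 15 without replicate 2 of the 100 pM group and 18 without replicate 1 of the 11.1 pM group.

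In HL-60 cells more members of complex IV rose than fell. At 500 pM 7 of its 13 tested members rose and 3 fell, where 35.8% of all genes tested were called higher and 37.8% lower. At 112.7 pM 7 rose and 1 fell, where the shares were 24.2% and 27.4%. Besides NDUFA4L2 at 500 pM and COX5A at 112.7 pM, the 6 that rose at both doses were COX4I1, the regulatory subunit that binds adenine nucleotides, COX5B, which holds a zinc ion, COX6A1, COX6B1, which faces cytochrome c, COX8A and NDUFA4. The median of complex IV exceeded that of all genes by 0.17 at 500 pM with TMM factors. It also did so by 0.17 with RLE factors, library totals or upper quartile factors. A change of scaling shifts all genes nearly alike, so the equal values are no further check. The excess over all genes was 0.11 without replicate 1 of the 500 pM group, and 0.00 over the 16 members tested with no filter on low counts. The complex median was the value of COX8A, between members that rose and members near or below 0. NDUFA4L2, with few counts, was among those above it. With library totals alone the counts became 11 higher and 0 lower, and complexes I and III then also had more rises than falls (21 and 9, and 6 and 2).

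COX6B1 had 223 and 230 CPM at 500 pM and COX6A1 351 and 353 CPM, against 178 and 187 CPM for COX6B1 and 289 and 298 CPM for COX6A1 in HL-60 controls. Their changes were 0.31 and 0.26 (SE 0.04 and 0.03, adjusted p = 1.29e-06 and 8.04e-07 in edgeR). COX4I1 had 272 and 270 CPM, against 227 and 238 CPM in controls, a change of 0.22 (SE 0.03). In each of these genes both treated libraries lay above both control libraries. COX8A had 170 and 157 CPM, against 146 and 144 CPM in controls (change 0.17, SE 0.04). COX7B, COX7C and COX7A2L, by contrast, fell by 0.13, 0.15 and 0.10 at 500 pM, although COX7B was 0.06 higher under library totals alone and lost its call without replicate 2 of the controls (-0.08) or replicate 1 of the 500 pM group (-0.07).

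In Molm-14 cells 8 of the same 13 members fell and 0 rose at 100 pM, where 21.9% of all genes tested were called lower and 22.9% higher. The change differed between the lines for 8 of them at the high doses, 7 greater in HL-60 cells and 1 smaller, where 25.1% of all genes tested had a greater and 30.3% a smaller change in HL-60 cells. At the near-equal doses, 112.7 pM for HL-60 and 100 pM for Molm-14 cells, it was greater in HL-60 cells for 10 of the 13 and smaller for 0, where the shares of all genes were 16.7% and 21.0%. These doses are near equal in pM only, since 100 pM lies well above the half-maximal inhibitory concentration of Molm-14 cells. COX8A showed a difference of 0.46 (SE 0.06) at the high doses and 0.51 (SE 0.06, adjusted p = 9.95e-07 in edgeR) at the near-equal doses.

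Promoters of 7 complex IV genes are shown because members with and without one short motif moved apart in HL-60 cells. The promoter sequences, from 60 bases before to 20 bases after the start, are those of RefSeq on GRCh38.p14, and capitals mark CCGGAAG, a core bound by ETS family factors such as GABPA, or its reverse complement CTTCCGG. All 7 genes lie on the plus strand. The first 5 carry the motif within this window and the last 2 carry none in it.
COX4I1: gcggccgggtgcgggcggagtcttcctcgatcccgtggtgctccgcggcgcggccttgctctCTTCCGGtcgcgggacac
COX5B: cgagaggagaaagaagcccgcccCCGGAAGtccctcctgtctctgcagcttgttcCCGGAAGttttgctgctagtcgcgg
COX6A1: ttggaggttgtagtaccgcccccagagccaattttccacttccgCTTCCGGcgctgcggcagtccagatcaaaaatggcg
COX6B1: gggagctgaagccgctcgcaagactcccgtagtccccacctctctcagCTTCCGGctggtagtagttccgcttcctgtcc
COX8A: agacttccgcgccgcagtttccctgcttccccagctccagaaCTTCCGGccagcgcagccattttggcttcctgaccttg
COX7B: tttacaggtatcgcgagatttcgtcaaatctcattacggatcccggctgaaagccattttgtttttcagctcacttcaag
COX7C: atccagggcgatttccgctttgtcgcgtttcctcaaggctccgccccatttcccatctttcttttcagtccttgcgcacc

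These windows stand at chr16:85799635-85799714 (COX4I1), chr2:97646002-97646081 (COX5B), chr12:120438053-120438132 (COX6A1), chr19:35648263-35648342 (COX6B1), chr11:63974560-63974639 (COX8A), chrX:77899408-77899487 (COX7B) and chr5:86617881-86617960 (COX7C). The search covered the full promoter entries, 250 bases before to 50 bases after the start, on both strands, for 70 members with an entry. CCGGAAG was found in 21 of the 70 (30.0%) and in 10.3% of all 35116 promoters. Many of those belong to genes not expressed here, and among the 10737 genes tested with an entry the share was 21.9%. The motif for NRF1 was found in 24.3% of the members, 5.78% of all promoters and 12.9% of genes tested, and that for YY1, ATGGCGG, in 30.0%, 5.55% and 12.1%. A match describes letters only and is neither a binding site nor a cause.

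The 5 complex IV genes with CCGGAAG (COX4I1, COX5B, COX6A1, COX6B1 and COX8A) all rose at both doses in HL-60 cells, with a median change of 0.22 at each dose. NDUFA4, which also rose at both doses, NDUFA4L2 and COX6C had no promoter entry and stand in neither group. Of the 5 tested complex IV genes with an entry and no match (COX5A, COX7A2, COX7A2L, COX7B and COX7C), 0 rose and 3 fell at 500 pM, with a median of -0.10. At 112.7 pM 1 of these rose (COX5A) and 1 fell (COX7A2L), with a median of 0.02, so the groups lay closer together there. In Molm-14 cells at 100 pM the same groups had medians of -0.17 and -0.17, with 3 falls in each. In complex I, the largest, the groups hardly separated, with medians of -0.03 for 5 genes with the motif and -0.07 for 27 without it at 500 pM, and 0.06 and 0.07 at 112.7 pM. Complex III gave a split like that of complex IV at 500 pM, with UQCR11 and UQCRQ higher and UQCRH lower among those with the motif, and 0 higher and 3 lower of the 4 without it. In complex V, ATP5MG and ATP5PD with the motif rose at 500 pM in HL-60 cells while ATP5F1A, ATP5MK and ATP5PF with the motif fell, and in complex II both genes with it, SDHB and SDHD, fell. Over all 21 tested members with the motif 11 rose and 8 fell (median 0.13), and of 45 without it 6 rose and 26 fell (median -0.12). Over all genes tested the direction was opposite, since of 2350 genes with the motif 605 rose and 1184 fell at 500 pM, and of 8387 without it 3173 rose and 3039 fell. For YY1 at 500 pM 4 of 21 members with it rose and 14 fell, and of 45 without it 13 rose and 20 fell. At 112.7 pM 4 of the 21 and 19 of the 45 rose, and 6 and 7 fell. For NRF1 at 500 pM 2 of 16 members with it rose and 7 fell, and of 50 without it 15 rose and 27 fell. At 112.7 pM 6 of the 16 and 17 of the 50 rose, and 3 and 10 fell. All rises and falls by motif were called with TMM factors, and their split depended on the scaling. With library totals alone complex IV had 11 higher and 0 lower of 13 at 500 pM. None of its genes without the motif was called lower there. The comparisons by motif were made after the changes had been seen, and no test was run on them.

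In complex V 12 of 17 tested members fell and 2 rose in HL-60 cells at 500 pM, where 37.8% of all genes tested were called lower and 35.8% higher. The complex median lay 0.21 below that of all genes with TMM factors. It was the same with RLE, library total or upper quartile scaling, which shift all genes nearly alike and so are no further check. Under library totals alone the counts were 6 lower and 5 higher. All 5 members of the F1 head and stalk and all 3 members of the c-ring, the rotor that protons turn, were among the 12 that fell. ATP5F1A, the alpha subunit, had 1108 and 1079 CPM at 500 pM, against 1377 and 1340 CPM in HL-60 controls (change -0.31, SE 0.03, adjusted p = 3.83e-08 in edgeR). ATP5F1B had 1339 and 1343 CPM, against 1676 and 1683 CPM in controls (change -0.32, SE 0.03). For both catalytic genes the 112.7 pM libraries lay between the control and the 500 pM libraries, at 1269 and 1273 CPM for ATP5F1A and 1559 and 1596 CPM for ATP5F1B.

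The peripheral stalk, which holds the F1 head still against the rotor, included the largest rise and the largest fall of complex V. ATP5PB, its subunit b, had 291 and 302 CPM at 500 pM against 411 and 403 CPM in controls, a change of -0.46 (SE 0.03). ATP5PD, its subunit d, had 145 and 151 CPM against 110 and 109 CPM in controls, a change of 0.44 (SE 0.04, adjusted p = 1.11e-08 in edgeR). Subunits that sit in one structure thus changed in opposite directions. ATP5PD was also the largest rise at 112.7 pM, at 0.37 (SE 0.04), while in Molm-14 cells at 100 pM it changed by -0.13, a call that was lost without replicate 1 of the controls or of the 100 pM group. Its difference between the lines was 0.57 (SE 0.06) at the high doses.

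**Figure D3:**
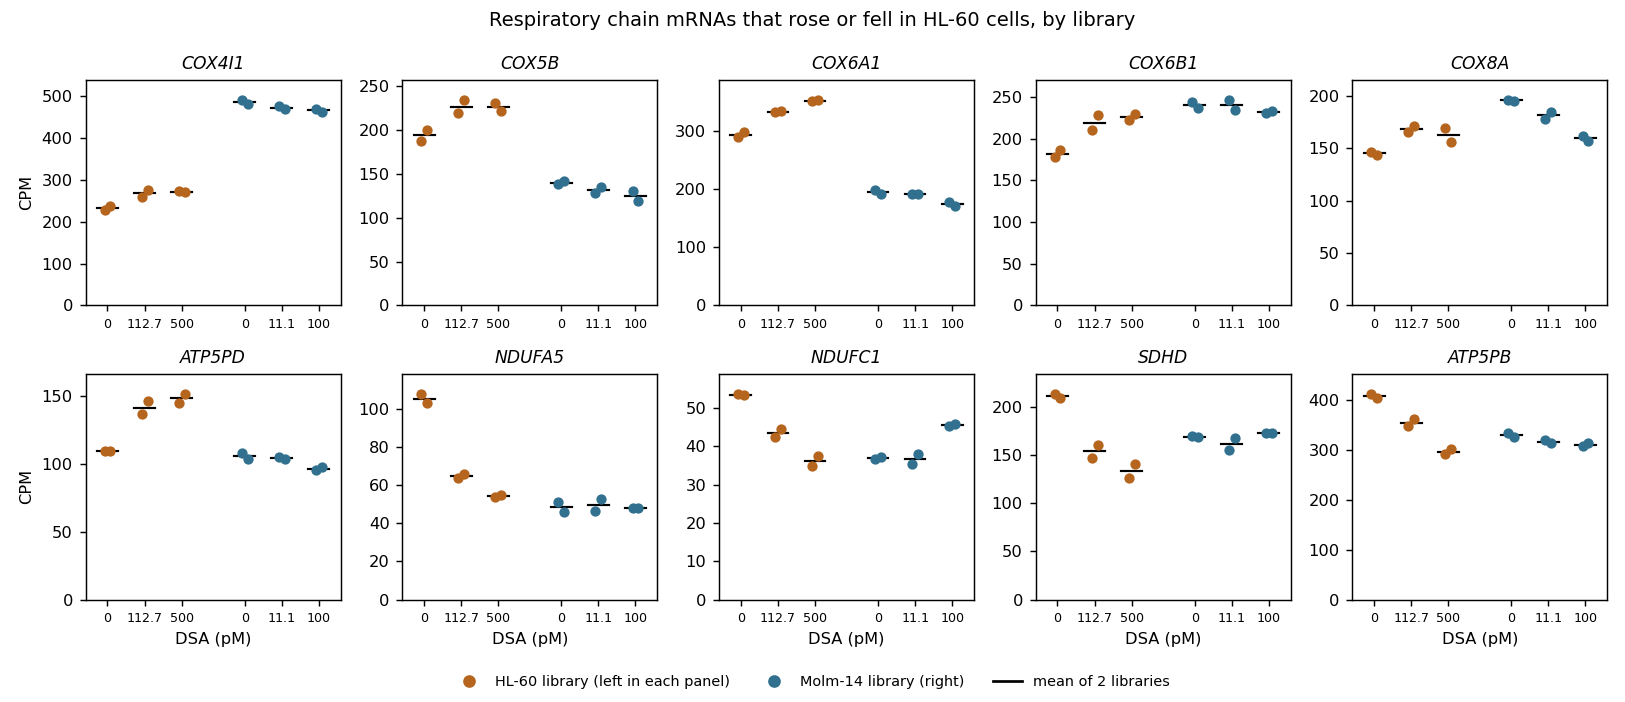
CPM of 10 members in each of 12 libraries by DSA dose in pM, with HL-60 libraries on the left and Molm-14 libraries on the right of each panel, bars at the mean of 2 libraries and axes from 0. In HL-60 cells the top row and ATP5PD lie above their controls at 112.7 and 500 pM, while NDUFA5, NDUFC1, SDHD and ATP5PB step down with dose.

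NDUFA5, an accessory subunit next to the quinone module of complex I, showed the largest fall in HL-60 cells. It had 108 and 103 CPM in controls, 63.8 and 66.2 CPM at 112.7 pM and 53.8 and 54.9 CPM at 500 pM. The 3 groups did not overlap. Its changes were -0.69 (SE 0.05, adjusted p = 9.48e-09 in edgeR) at 112.7 pM and -0.95 (SE 0.06, adjusted p = 1.76e-11) at 500 pM, a level 48.3% lower than in controls. In Molm-14 cells, which had 51.2 and 46.2 CPM without DSA, it had 48.1 and 48.1 CPM at 100 pM, a change of -0.02, and the difference between the lines was -0.93 (SE 0.08) at the high doses.

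Complex I as a whole was mixed in HL-60 cells. At 112.7 pM 12 of 37 members were higher and 8 lower, where 24.2% of all genes tested were called higher and 27.4% lower. At 500 pM 8 were higher and 16 lower, where 35.8% of all genes were called higher and 37.8% lower. The 12 became 5 without replicate 1 of the controls and 4 without replicate 2 of the 112.7 pM group. Among the 7 genes of the catalytic core, 0 rose and 4 fell at 500 pM (NDUFS1, NDUFS3, NDUFS7 and NDUFV2). NDUFV1, which binds NADH and flavin, had a change of -0.04 and was not called. The 20 accessory subunits of the membrane arm gave 6 rises and 6 falls at 500 pM. NDUFB1 rose by 0.34 (SE 0.06) and NDUFA13, also known as GRIM-19, by 0.28, while NDUFC1, NDUFB6 and NDUFC2 fell by 0.56, 0.48 and 0.42. NDUFA2, a matrix-arm subunit with a thioredoxin-like fold, had 105 and 106 CPM at 500 pM against 82.0 and 86.6 CPM in controls (change 0.32).

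NDUFC1 moved in opposite directions in the lines. It had 34.7 and 37.4 CPM in HL-60 cells at 500 pM against 53.5 and 53.3 CPM in HL-60 controls, a change of -0.56 (SE 0.05, adjusted p = 1.06e-08 in edgeR), beside the rise of 0.30 in Molm-14 cells given above. The difference was -0.86 (SE 0.07, adjusted p = 1.09e-08) at the high doses and -0.59 (SE 0.07) at the near-equal doses. NDUFC2-KCTD14, a read-through of NDUFC2 into the next gene, was at 3.65 and 2.83 CPM at 500 pM against 4.26 and 4.80 CPM in controls. Its called change of -0.52 (SE 0.21) is uncertain, since reads of NDUFC2 can be split between the overlapping genes, and it was lost without replicate 2 of the controls (-0.42) or of the 500 pM group (-0.32).

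Complex II, the succinate dehydrogenase that also works in the citric acid cycle, split by subunit in HL-60 cells. SDHD, one of its membrane anchors, had 209 to 213 CPM in controls, 147 and 160 CPM at 112.7 pM and 126 and 141 CPM at 500 pM. Its changes were -0.45 (SE 0.05) at 112.7 pM and -0.66 (SE 0.05, adjusted p = 7.61e-10 in edgeR) at 500 pM. SDHB, the iron-sulfur subunit, fell by 0.45 and SDHC, the other anchor, by 0.19 at 500 pM. SDHA, the flavoprotein that oxidizes succinate, rose instead, to 239 and 243 CPM at 500 pM, against 210 and 211 CPM in controls (change 0.20, SE 0.04). In Molm-14 cells at 100 pM SDHA fell by 0.24 and SDHD had a change of 0.04, and the lines differed for both genes, by 0.43 for SDHA and -0.69 for SDHD (SE 0.05 and 0.07). Pseudogenes of SDHA took 8.85% of the reads of the gene and its copies, and adding them to SDHA changed no call.

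The nuclear genome encodes 2 electron-carrying subunits of complex III, and both fell in all comparisons with control but that at 11.1 pM. CYC1, cytochrome c1, changed by -0.19 in Molm-14 cells at 100 pM, -0.10 in HL-60 cells at 112.7 pM and -0.29 in HL-60 cells at 500 pM. UQCRFS1, the Rieske iron-sulfur protein, changed by -0.20, -0.13 and -0.43 in the same order, with 145 and 143 CPM at 500 pM against 188 and 198 CPM in HL-60 controls. All 6 changes were called, but those at 112.7 pM were lost with library totals, RLE or upper quartile factors, and without replicate 2 of the controls or of the 112.7 pM group. Among the 8 accessory subunits, UQCR11 and UQCRQ rose in HL-60 cells at both doses and fell in Molm-14 cells at 100 pM. UQCRH, the hinge protein, shares a near-identical sequence with UQCRHL, so reads may be split between them. Its fall of 0.07 at 500 pM turned into 0.11 higher under library totals and 0.06 higher under upper quartile factors.

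Across the tested members, the changes in the 2 lines were only weakly related. Between Molm-14 cells at 100 pM and HL-60 cells at 500 pM Pearson's r was -0.30 and Spearman's rho 0.09 over 83 members, and without NDUFA4L2 r was 0.09 and rho 0.13 over 82. These are descriptions across genes, which are not independent replicates and share the libraries of each line. Of the 42 members lower in Molm-14 cells, 23 were also among the 40 lower in HL-60 cells, and 10 were higher there. Among all 83 members 40 were lower and 20 higher in HL-60 cells at 500 pM, so this overlap is near what those counts alone would give. Tested gene by gene, the change was greater in HL-60 cells for 22 members and smaller for 21 at the high doses (26.5% and 25.3%), near the 25.1% and 30.3% of all genes tested. At the near-equal doses it was greater for 40 and smaller for 6 (48.2% and 7.23%), where the shares of all genes were 16.7% and 21.0%. The first of these splits moved with the scaling, to 45 greater and 5 smaller under library totals alone and 42 and 11 under upper quartile factors.

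The isoforms restricted to other tissues were hardly read at all. COX4I2, COX6A2 and COX7A1, the forms of lung and of heart and skeletal muscle, had 0 counts in all 12 libraries, while COX6B2, COX7B2 and COX8C, known from testis, had 0 to 2. ATP5MGL, a copy of the ATP5MG gene, had 2 to 8 counts per library. These 7 genes were left out of the tests, and DSA at these doses brought none of them above 8 counts. The intact partners COX4I1, COX6A1, COX7A2, COX6B1, COX7B, COX8A and ATP5MG supplied nearly all of these isoform pairs, at 110 CPM or more in every library.

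The 13 mRNAs encoded by mitochondrial DNA rose in both lines. In the fit over all gene types (17364 genes tested), 12 of 13 rose in HL-60 cells at 500 pM with a median of 0.89, where 32.8% of all genes were called higher and 32.7% lower, and 0 fell. The mRNA not called was MT-ND3. In Molm-14 cells at 100 pM all 13 rose with a median of 1.12, where 18.3% of all genes were called higher and 19.1% lower. At the low doses 11 rose in each line, with medians of 0.59 in HL-60 cells at 112.7 pM and 0.61 in Molm-14 cells at 11.1 pM, where 19.7% and 0.795% of all genes were called higher and 22.3% and 0.196% lower. In this fit the nuclear members had medians of -0.10 in HL-60 cells at 500 pM and -0.13 in Molm-14 cells at 100 pM.

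MT-CO1, the catalytic subunit of complex IV, had 8726 and 7252 CPM in HL-60 cells at 500 pM against 3554 and 3890 CPM in HL-60 controls, and 7317 and 4611 CPM in Molm-14 cells at 100 pM against 2617 and 2984 CPM in Molm-14 controls. MT-CYB, cytochrome b of complex III, rose by 1.099 (SE 0.13) in HL-60 cells at 500 pM and by 1.30 (SE 0.13) in Molm-14 cells at 100 pM, in the same complex where CYC1 and UQCRFS1 fell. As a share of all TPM these 13 mRNAs reached 9.07% and 7.98% in HL-60 cells at 500 pM, against 4.51% and 5.09% in controls. In Molm-14 cells at 100 pM the share was 6.71% and 4.61%, against 2.54% and 2.90% in controls, so the 2 treated Molm-14 libraries differed from each other more than the controls did. No source at hand says how the library preparation recovered these mRNAs, and its part in these values was not tested.

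**Figure D4:**
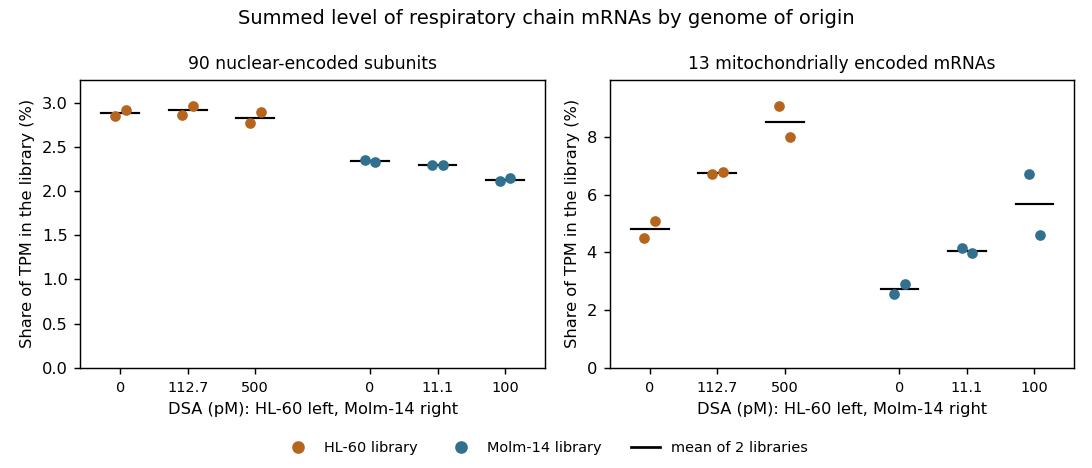
Share of all TPM in each of 12 libraries (%, axes from 0) taken by the 90 nuclear-encoded subunits (left) and by the 13 mRNAs of mitochondrial DNA (right), by DSA dose in pM, with HL-60 libraries on the left and Molm-14 libraries on the right of each panel and bars at the mean of 2 libraries. The nuclear share stays between 2.12% and 2.96% while the mean mitochondrial share is higher at each higher dose in both lines.

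Counts for genes that build or regulate the chain are read against the 37.8% of all genes tested that were called lower and 35.8% higher in HL-60 cells at 500 pM, and the 21.9% and 22.9% in Molm-14 cells at 100 pM. Of the 20 genes for mitochondrial transcription and its regulators 16 fell and 1 rose at 500 pM, with a median of -0.41, and 12 fell and 0 rose in Molm-14 cells at 100 pM, with a median of -0.16. TFAM, which packages and transcribes mitochondrial DNA, fell by 0.82 in HL-60 cells and NRF1, a transcription factor of nuclear mitochondrial genes, by 0.58 in Molm-14 cells. Of the complex I assembly factors 15 of 18 fell and 1 rose at 500 pM in HL-60 cells, led by NUBPL (-1.22), TMEM126B (-1.15) and NDUFAF4 (-1.09). Of the complex IV assembly factors 18 of 26 fell and 2 rose, with a median of -0.28, and COX11, which delivers copper to the complex, fell by 0.83.

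The remaining lists were set against the same shares of all genes. Of 19 citric acid cycle genes 14 fell and 2 rose in HL-60 cells at 500 pM, and IDH2, the mitochondrial NADP-dependent isocitrate dehydrogenase, was 1 of those that rose, by 1.02. Among 20 electron carriers and coenzyme Q genes 11 fell and 5 rose, with CYCS, cytochrome c itself, at -0.88 and ETFB of the electron transfer flavoprotein at 0.95. Of 6 complex III assembly factors 4 fell and 1 rose, and UQCC3 fell by 1.34. Of 4 complex II assembly factors 1 fell and 2 rose, and of 6 genes of ATP synthase assembly and inhibition 2 fell and 1 rose (ATP5IF1, the inhibitor of the reverse reaction, by 0.23).

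Without DSA most members differed between the lines, as did most genes tested, and more of the members stood higher in HL-60 cells than lower. In HL-60 controls compared to Molm-14 controls 52 of 83 members were higher and 21 lower, where 43.9% of all genes tested were called higher and 40.1% lower, and the median member was 0.41 higher against 0.06 for all genes. NDUFA4L2 showed the largest difference, -4.51 (SE 0.18, adjusted p = 1.42e-14 in edgeR). The largest excess in HL-60 cells was in NDUFB10 of the membrane arm, at 168 and 170 CPM in HL-60 against 72.0 and 72.1 CPM in Molm-14 controls (1.23, SE 0.04). NDUFC2, NDUFA5 and NDUFS8, an iron-sulfur subunit of the matrix arm, followed at 1.19, 1.11 and 1.07. On the other side COX4I1 had 227 and 238 CPM in HL-60 against 489 and 480 CPM in Molm-14 controls (-1.06, SE 0.03).

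The members on chromosome 8 stood together in this comparison. UQCRB, CYC1, COX6C and NDUFB9, the 4 tested members there, were all lower in HL-60 cells, with differences of -1.314, -1.13, -0.93 and -0.54 on the log2 scale. UQCRB had 122 and 121 CPM in HL-60 against 311 and 293 CPM in Molm-14 controls. The same held for the chromosome at large, where 372 of 434 genes tested (85.7%) were lower in HL-60 cells. Its median was -1.34, the lowest among the autosomes and X, with Y left out. These 4 genes come from complexes I, III and IV. On chromosome 19, which holds 10 tested members, 5 were lower and 1 higher, with a median of -0.11 beside -0.20 for all its genes. Gene copy number was not measured here, so its part in these differences was not tested.

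**Figure D5:**
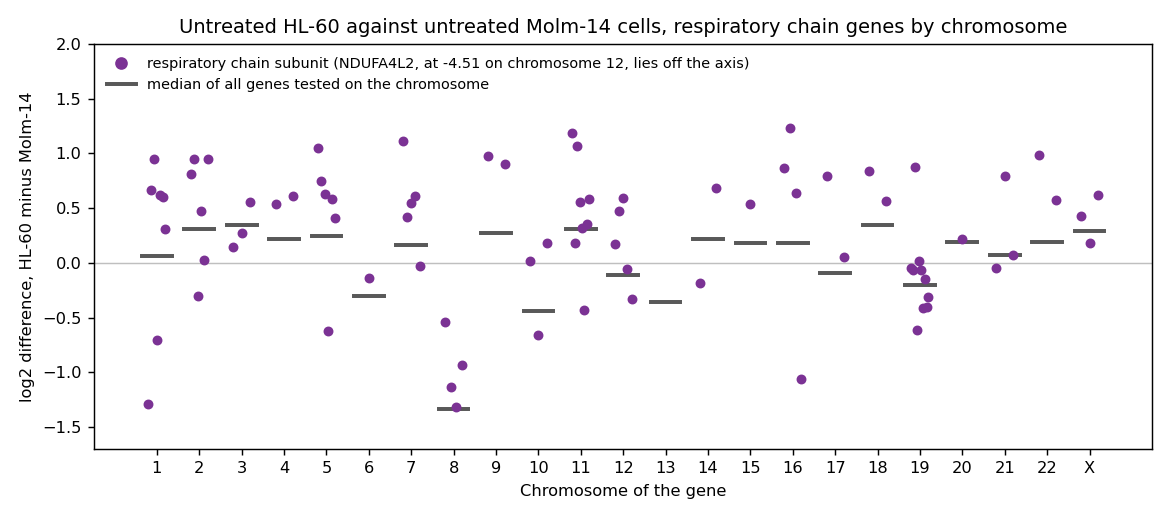
Log2 difference of each tested member between untreated HL-60 and untreated Molm-14 cells (points), by the chromosome of the gene, with the median of all genes tested on that chromosome as a bar. Chromosome Y is not drawn. Chromosome 8 has the lowest bar (-1.34) and all 4 of its members lie below 0. NDUFA4L2 on chromosome 12, at -4.51, lies off the axis.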

How the data were processed

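Total RNA was sequenced from 12 libraries, 2 in each of 6 groups, grouped by the cell line and treatment in the labels. Per the submitters' processing notes the authors trimmed reads with Trim Galore 0.60, mapped them to hg38 with STAR 2.7 and estimated each gene with RSEM 1.31 on GENCODE 31. The deposited expected counts (not whole, unscaled, reads shared by similar genes divided between them) were rounded and tested. The deposited TPM values, scaled by the authors to transcript length and library, were used only for levels between genes and for shares. Deposited FPKM values were not used. Strandedness, RNA selection and library kit: not given in the sources used here. Reads of a gene and an antisense partner may therefore be mixed.

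Gene identifiers were matched to GENCODE 44 symbols (60261 of 60754 matched). Protein-coding genes of annotation level 1 or 2 (19868) were tested, as in the study's methods, after edgeR's filterByExpr, which left 13422. The main test was edgeR 4.0.16 (R 4.3.3) with TMM factors, glmQLFit and glmQLFTest, 1 mean per group and Benjamini-Hochberg adjustment over all genes tested, with calls at an adjusted p of 0.05. It was tested on simulated data. Genes copied on the Y chromosome (45) were left out. All fold changes are on the log2 scale of edgeR, and CPM values use the TMM library sizes. NDUFA4L2, the lowest member tested in HL-60 cells (13 to 36 counts per library), passed the filter, which ran once over all 6 groups.

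Alternatives were DESeq2 1.42.0, limma-voom 3.58.1, RLE, upper quartile and library total scaling, no filter, a higher filter (mean of 50 counts or more), all gene types, only the libraries compared, thinning to the smallest library, adding pseudogene reads, a fold change over 1.5, the replicate number as a block, and leaving out each library in turn. Named members were the 4 largest rises and falls per comparison among genes averaging 50 counts or more, the central subunits, the isoform pairs and the members left out, with up to 3 genes per context list. That average was taken over all 12 libraries, and NDUFA4L2 reached it through its Molm-14 libraries. Other members named were picked after their values were seen. The members, the 9 context lists and the 3 motifs were chosen with earlier results of these data known. Replicates of each group differed beyond sampling noise (chi-square per degree of freedom 2.16 to 3.63), and each was kept as its own library. Such an excess cannot tell separate cultures from repeated libraries of the same culture. Some genes that the rule would name are not reported here.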

Additional observations from a re-analysis of the deposited data

Results flagged for a closer look

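The change with DSA differed between the lines, by a test of the difference itself in edgeR, for some members. At the high doses (500 pM for HL-60 and 100 pM for Molm-14 cells) 22 members had a greater and 21 a smaller change in HL-60 cells, near the 25.1% and 30.3% of all genes tested. At the near-equal doses (112.7 and 100 pM) 40 had a greater and 6 a smaller one, where 16.7% and 21.0% of all genes did. Differences are given as HL-60 minus Molm-14 on the log2 scale, at the high doses and then at the near-equal doses. NDUFA4L2 differed by 2.75 and 2.0, ATP5PD by 0.57 and 0.50, COX8A by 0.46 and 0.51 and SDHA by 0.43 and 0.45. NDUFA5 differed by -0.93 and -0.68, NDUFC1 by -0.86 and -0.59 and SDHD by -0.69 and -0.49. ATP5PB differed by -0.37 at the high doses and NDUFB5 by -0.37 at the near-equal doses. NDUFC1 rose in Molm-14 cells at 100 pM and fell in HL-60 cells at both doses, COX8A and ATP5PD did the reverse, and the HL-60 values of NDUFA4L2 rest on 13 to 36 counts per library. All differences share the line, medium, serum and dose, which cannot be told apart.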

How the results depend on the processing

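With 2 libraries a group, and smaller libraries in DSA-treated HL-60 cells, changes under about 0.1 on the log2 scale sat near the limit of the tests, and their side of the threshold moved with the scaling. Counts are given as members higher and lower. DESeq2 gave 9 lower and RLE factors 10 lower in HL-60 cells at 112.7 pM. Library totals alone gave 46 and 8 at 112.7 pM, 44 and 19 at 500 pM, 16 and 17 between 500 and 112.7 pM, and 45 and 5 for the difference between lines at the high doses. Upper quartile factors gave 47 and 8 at 112.7 pM, 35 and 23 at 500 pM, and 42 and 11 for that difference. Members higher at 500 than at 112.7 pM numbered 1 with DESeq2, 5 with RLE factors, 0 with all gene types, 5 with the higher filter, 0 with no filter, 0 with only the libraries compared, 0 when thinned to the smallest library and 8 with upper quartile factors. At 500 pM in HL-60 cells COX7B changed by 0.0551, NDUFB10 by 0.0390 and UQCRH by 0.113 under library totals alone, and UQCRH by 0.0568 under upper quartile factors, where the main values were negative.

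Asking for a fold change over 1.5 as well left 0 and 1 in Molm-14 cells at 100 pM, 0 and 1 between 100 and 11.1 pM, 0 and 1 in HL-60 cells at 112.7 pM, 1 and 2 at 500 pM, 0 and 0 between 500 and 112.7 pM, 28 and 10 between the untreated lines, 1 and 3 for the difference at the high doses and 1 and 2 at the near-equal doses. The 1 rise at 500 pM and the 1 greater change in each difference were NDUFA4L2, which had few counts in HL-60 cells. Leaving out each library in turn gave 27 to 43 lower in Molm-14 cells at 100 pM, 17 to 32 higher and 11 to 19 lower in HL-60 cells at 112.7 pM, 16 to 20 higher and 32 to 41 lower at 500 pM, 15 to 29 lower between 100 and 11.1 pM, 0 to 3 higher and 27 to 50 lower between 500 and 112.7 pM, 16 to 24 greater and 15 to 21 smaller changes in HL-60 cells at the high doses, and 29 to 43 greater and 5 to 7 smaller ones at the near-equal doses. Replicates 1 of the Molm-14 controls and of the 11.1 pM group, replicate 2 of the 100 pM and 500 pM groups and both replicates at 112.7 pM moved a count over all members by over 1.5 times, and counts within single complexes also moved with other libraries, as given beside them. The cause was not tested.

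As a share of expected counts instead of TPM the members took 1.41% in HL-60 controls, 1.47% at 112.7 pM and 1.42% at 500 pM, and 1.25% in Molm-14 controls, 1.23% at 11.1 pM and 1.17% at 100 pM. With the mitochondrial chromosome left out of the total, the TPM shares were 3.04%, 3.14% and 3.11% in HL-60 and 2.41%, 2.40% and 2.27% in Molm-14 cells in the same order. Same-numbered libraries did not deviate together (correlations of deviations -0.08 to 0.18), and with the replicate number as a block the counts were 4 and 44 in Molm-14 cells at 100 pM and 20 and 42 in HL-60 cells at 500 pM, with no count moved by over 1.5 times. Of the single members named, 2251 values under these alternatives kept direction and call, 121 kept direction but lost the call and 4 reversed. With a library left out, 2242 kept both and 134 lost the call.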
